A study of Homo sapiens with 12 samples.

Results

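The question addressed was whether ASTX660 left weak expression changes in ML-2 cells that 3 arrays against 3 could not show. All 12 of the 12 arrays were used: the 6 that had ASTX660 were compared with the 6 that had none, with SGI-110 presence and the number in the sample title (2, 9 or 13) as further terms. ML-2 is an established human acute myeloid leukaemia line. ASTX660 is a small molecule that antagonises the inhibitor of apoptosis proteins cIAP1, cIAP2 and XIAP, and SGI-110 is guadecitabine, a hypomethylating prodrug that releases decitabine. Per the labels, solvent controls got solvent in both steps, the ASTX660 group got 5 µM ASTX660 for 9 h, the SGI-110 group got 2 µM SGI-110 with a labelled time of 33 h, and the combination got SGI-110 for 24 h before ASTX660 was added for 9 h. Each of these 4 groups held 3 arrays from independent experiments. The sources used here do not say whether SGI-110 stayed in the medium during the last 9 h, so the combination and the SGI-110 group may differ in SGI-110 exposure as well as in ASTX660. Titles with the same number were taken to come from the same experiment, although no label says so.

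Inhibitor of apoptosis proteins are ubiquitin ligases that hold caspases and the NF-kB-inducing kinase in check, and their antagonists are known for cIAP degradation, non-canonical NF-kB activity and TNF-dependent cell death. Cholesterol is built from acetyl-CoA through mevalonate, squalene and lanosterol, and the genes of that route are controlled together by the membrane-bound transcription factor SREBP2. When sterols are scarce, SCAP carries SREBP2 to the Golgi for cleavage. INSIG proteins hold it back when sterols are plentiful. Sterol excess instead activates LXR and efflux genes such as ABCA1.

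The arrays carried the myeloid genes MPO, LYZ, CEBPA and CSF3R well above the array medians of 4.69 to 4.77 log2 units, with means over 12 arrays of 13.34, 13.29, 10.84 and 8.26. KIT, MEIS1 and ANPEP were dimmer than the medians (3.78, 3.32 and 4.33), and 4 of the 12 myeloid markers listed were not analysed here. SGI-110 separated the arrays along principal component 1 (51.2% of the variance) and number 13 stood apart on component 2 (13.9%). On component 3 (11.7%) ASTX660 array 2 lay at 16.95, while the remaining 11 arrays lay between -9.28 and 4.11. Calls lost without that array are therefore named, and some other values are also given without it. Because the cells are measured in bulk, fewer cells of a type and less RNA per cell cannot be told apart.

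With ASTX660, genes of cholesterol synthesis rose together by small amounts, and nearly every other gene stayed below the threshold. Of 12689 genes tested with limma, 23 passed an adjusted p under 0.05 (0.181%), 22 higher (0.173%) and 1 lower (0.00788%). Apart from MAP3K8, which lay near background, the genes that rose did so by 1.145-fold (FDPS) to 1.312-fold (LSS). Of these 23 genes 17 belonged to 3 lists of lipid genes, namely sterol synthesis, sterol regulation and uptake, and fatty acid synthesis. At an adjusted p under 0.10 there were 45 genes (0.355%). The median change of all tested genes was 0.02 log2 units. For the median gene the 95% interval reached 0.108 log2 units to either side. The standard error of the pooled comparison had a median of 0.0517, against 0.0738 for 3 arrays against 3.

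**Figure D1:**
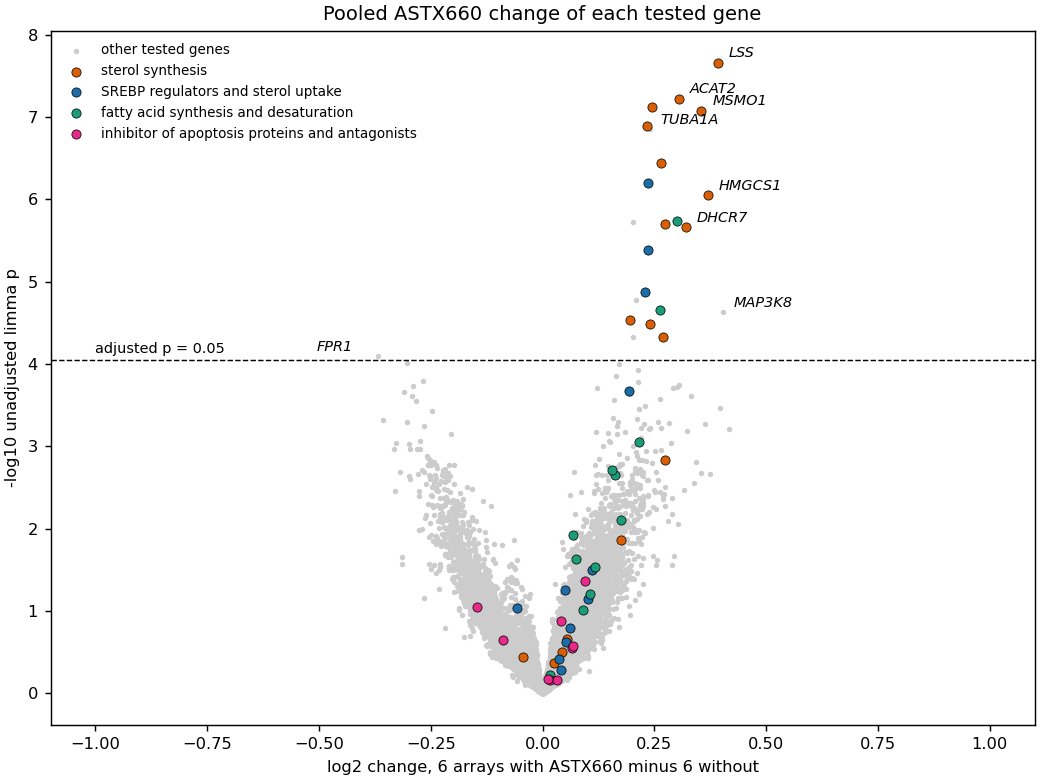
Each point is 1 of 12689 tested genes, with the pooled log2 change (6 arrays with ASTX660 minus 6 without) on the x axis and -log10 of the unadjusted limma p on the y axis. Coloured points mark 4 gene lists. Of the 23 genes above the dashed line, 22 lie to the right and FPR1 alone lies to the left, and no gene of the inhibitor of apoptosis list lies above it.

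To follow the change within experiments, 6 differences were formed for each gene, each an array with ASTX660 minus the array without it of the same number and the same SGI-110 state. All 6 had the same sign in 22 of the 23 genes that passed, and in 8.82% of all tested genes (6.3% all higher and 2.51% all lower). The test itself favours genes whose differences run alike, so this count is a description and no support for the calls. SCD was the exception, with 5 positive and 1 negative difference. In 7 of the 23 the 6 arrays with ASTX660 did not overlap the 6 without at all (0.276% of all genes). These were ACAT2, SQLE, EBP, SC5D, NSDHL and ERG28, where arrays with ASTX660 were higher, and FPR1, where they were lower.

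Of 22 listed sterol synthesis genes, 18 were tested and 4 were not analysed here. Among the 18, 12 rose, 0 fell and 6 did not pass, with a median change of 0.25 log2 units against 0.02 over all genes. The genes that rose ranged from the joining of acetyl-CoA to the last reduction that yields cholesterol, but not every step passed. Between HMGCS1 and IDI1, the genes MVK, PMVK and MVD did not pass.

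At the entry, ACAT2, the cytosolic thiolase that joins acetyl-CoA units, lay at 9.44, 9.504 and 9.66 (lowest, median and highest) in the arrays without ASTX660 and at 9.68, 9.87 and 9.94 with it. It rose by 0.30 (95% interval 0.23 to 0.38, limma adjusted p = 0.000267). HMGCS1, the HMG-CoA synthase of the next step, was at 9.90, 10.13 and 9.90 in solvent arrays 2, 9 and 13 and at 10.47, 10.40 and 10.09 in the ASTX660 arrays. After SGI-110 it was at 9.27, 9.65 and 9.43 without ASTX660 and at 9.72, 10.08 and 9.75 with it. ASTX660 arrays were higher in each of the 6 same-number pairs, but the sets of 6 overlapped. HMGCS1 rose by 0.37 (0.26 to 0.48, 1.292-fold, adjusted p = 0.00126). The isomerase IDI1 rose by 0.26 (adjusted p = 0.000657), and FDPS, which makes farnesyl diphosphate, rose by 0.20 (0.0197). IDI1 and HSD17B7 were read by probe sets that can also catch related transcripts. The kinases MVK (-0.04, adjusted p = 0.665) and PMVK (0.06, 0.557) and the prenyl synthase GGPS1 (0.04, 0.633) did not pass. MVD, the decarboxylase between them, stood at 0.27 without passing (adjusted p = 0.193), since its 6 differences spread from -0.00213 to 0.608.

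At the squalene steps, LSS, the cyclase that makes lanosterol, lay at 8.37, 8.57 and 8.45 in solvent arrays 2, 9 and 13, at 8.89, 9.08 and 8.77 with ASTX660, at 8.17, 8.29 and 8.14 with SGI-110, and at 8.43, 8.70 and 8.47 with both agents. Every array with ASTX660 was above its partner, and the combination arrays ended near the solvent level. LSS rose by 0.39 (0.30 to 0.48, 1.312-fold, adjusted p = 0.000267). SQLE, the squalene epoxidase, lay between 10.03 and 10.20 without ASTX660 and between 10.25 and 10.44 with it, with no overlap. It rose by 0.23 (0.17 to 0.29, adjusted p = 0.000299).

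Beyond lanosterol, the genes of C4 demethylation and of the last conversions rose as well. MSMO1, the C4 methyl oxidase, had 6 differences of 0.44, 0.17 and 0.20 without SGI-110 and 0.45, 0.43 and 0.44 after it, for numbers 2, 9 and 13. It rose by 0.35 (0.27 to 0.44, 1.279-fold, adjusted p = 0.000267). Its partners in that complex also rose: NSDHL by 0.27 (adjusted p = 0.0275), HSD17B7 by 0.27 (0.00212) and ERG28, their membrane scaffold, by 0.20 (0.0275). ERG28 is on none of the lists. The isomerase EBP lay at 10.29, 10.36 and 10.46 without ASTX660 and at 10.55, 10.62 and 10.73 with it, and rose by 0.24 (0.18 to 0.30, adjusted p = 0.000267). SC5D, the C5 desaturase, rose by 0.24 (0.0205) and DHCR7, which completes cholesterol, by 0.32 (0.22 to 0.42, adjusted p = 0.00214). The sterol reductases TM7SF2 (0.17, adjusted p = 0.284) and LBR (0.03, 0.708) did not pass.

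**Figure D2:**
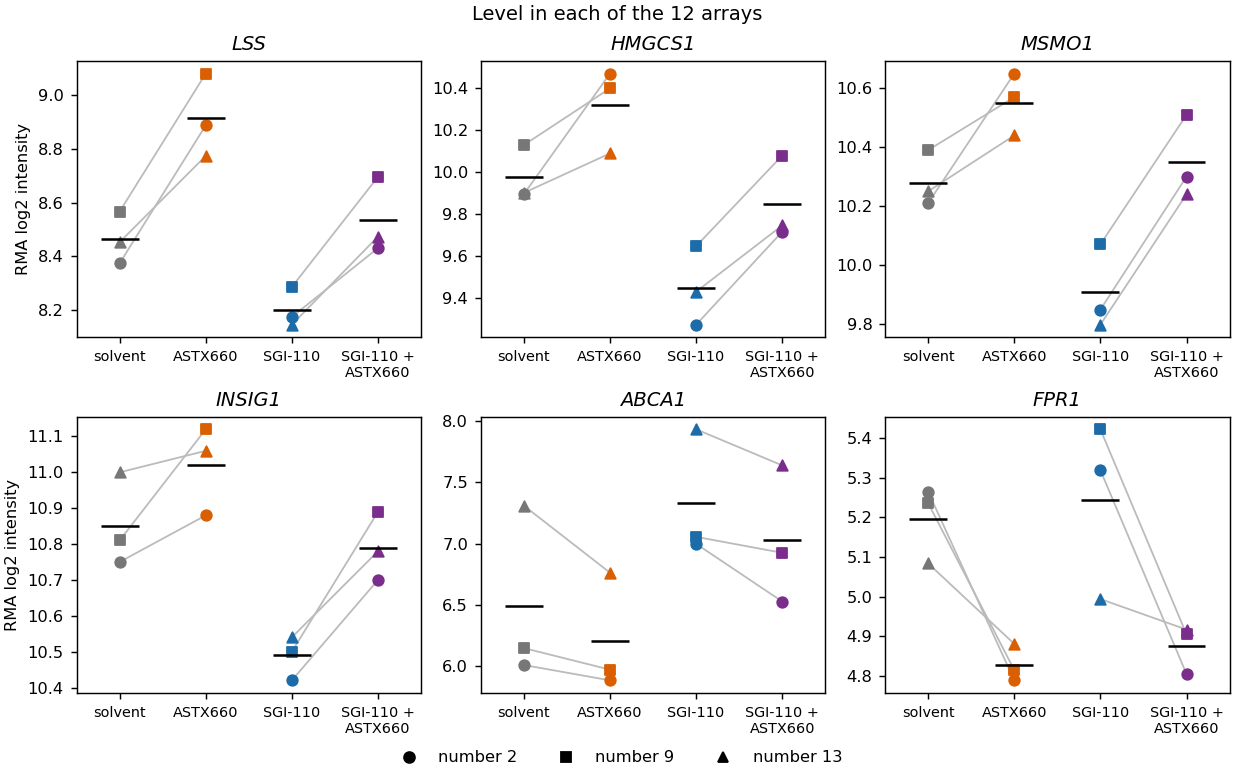
RMA log2 intensity (y axis, a separate range in each panel) of 6 genes in the 12 arrays, by group. Symbols mark the title number, thin lines join arrays of the same number with and without ASTX660, and bars are means of 3 arrays. In LSS, HMGCS1, MSMO1 and INSIG1 all 6 lines slope up, and in ABCA1 and FPR1 all 6 slope down, with ABCA1 not passing the test.

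Of the 12 sterol synthesis calls, NSDHL (adjusted p = 0.0757) and FDPS (0.0841) were lost without ASTX660 array 2, which left 10 of the list and 19 genes in all, 18 of them among the 23. Without that array LSS stood at 0.37, HMGCS1 at 0.31 and MSMO1 at 0.33. The NSDHL and FDPS calls were also lost without solvent array 2, SGI-110 array 2 or 9, or combination array 9, and FDPS further without SGI-110 array 13 or combination array 13 (adjusted p 0.05 to 0.153 over both genes). SC5D was lost without 8 arrays (solvent 2 or 9, any SGI-110 array, ASTX660 array 9, combination 9 or 13, 0.0542 to 0.124). ERG28 was lost without all arrays except ASTX660 arrays 2 and 13 and combination array 2 (0.0508 to 0.167). With the title number left out of the model the list kept 5 calls and the whole comparison 7, all higher (LSS, ACAT2, IDI1, EBP, TUBA1A, SQLE and TMEM263).

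Because these genes moved together, the sequence before their transcript starts was read from RefSeq (GRCh38.p14, 250 bases each). NF-Y, a partner of SREBP on sterol gene promoters, is known to bind the letters CCAAT. Of the 22 genes that rose, 20 had a window in the table, among them MAP3K8, which lay near background. CCAAT, on either strand, occurred in 18 of these 20 (90.0%), against 41.1% of 10227 tested genes with a window and 32.0% of all 35116 windows. A gene with several starts was counted if any of its windows held the letters. TCACNCCAC, a form of the sterol regulatory element, was in 0 of the 20 (1.2% of tested genes), and the shorter CACNCCA, which lies inside it, in 8 (40.0% against 18.3%). The E-box CACGTG was in 2 (10.0% against 11.0%). Both strands were searched, and a match describes letters and not a bound site.

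Windows of 5 genes are printed 5' to 3' on the gene's strand, chosen to span the synthesis route and its regulator INSIG1. Capitals mark CCAAT or its reverse complement ATTGG. The windows are LSS on the minus strand (chr21:46228775-46229024), HMGCS1 on the minus strand (chr5:43313413-43313662, the more upstream of its 2 starts), MSMO1 (chr4:165327419-165327668), EBP (chrX:48521558-48521807) and INSIG1 (chr7:155297628-155297877), these 3 on the plus strand.
LSS: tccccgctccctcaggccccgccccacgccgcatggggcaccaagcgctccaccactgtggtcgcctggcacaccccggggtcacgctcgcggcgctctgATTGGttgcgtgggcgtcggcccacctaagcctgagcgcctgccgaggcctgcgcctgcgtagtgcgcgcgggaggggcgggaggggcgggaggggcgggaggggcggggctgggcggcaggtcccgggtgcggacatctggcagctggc
HMGCS1: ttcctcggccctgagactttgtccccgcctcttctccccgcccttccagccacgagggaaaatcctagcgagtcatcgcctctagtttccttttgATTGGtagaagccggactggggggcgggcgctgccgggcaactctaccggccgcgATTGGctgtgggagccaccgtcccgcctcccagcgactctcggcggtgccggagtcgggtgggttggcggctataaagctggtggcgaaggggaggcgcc
MSMO1: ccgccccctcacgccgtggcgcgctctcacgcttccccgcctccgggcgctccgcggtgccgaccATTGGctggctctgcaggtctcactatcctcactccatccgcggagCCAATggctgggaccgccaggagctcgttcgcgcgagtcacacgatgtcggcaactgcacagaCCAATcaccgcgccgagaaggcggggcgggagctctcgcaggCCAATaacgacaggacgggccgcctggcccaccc
EBP: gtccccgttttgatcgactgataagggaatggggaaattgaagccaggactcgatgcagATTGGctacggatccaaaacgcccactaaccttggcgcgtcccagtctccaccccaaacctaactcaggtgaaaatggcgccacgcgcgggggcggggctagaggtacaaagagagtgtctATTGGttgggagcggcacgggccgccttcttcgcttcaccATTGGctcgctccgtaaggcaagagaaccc
INSIG1: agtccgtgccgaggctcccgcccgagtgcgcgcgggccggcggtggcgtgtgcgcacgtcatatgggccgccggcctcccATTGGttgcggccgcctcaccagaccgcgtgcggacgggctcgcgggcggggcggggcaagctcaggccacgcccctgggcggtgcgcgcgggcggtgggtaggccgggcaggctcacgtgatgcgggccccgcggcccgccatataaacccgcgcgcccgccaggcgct
MSMO1 has 4 matches and EBP 3, HMGCS1 has 2, and LSS and INSIG1 have 1 each. The match nearest to the start begins 150 bases before it in LSS, 100 in HMGCS1, 34 in MSMO1, 30 in EBP and 170 in INSIG1. In FADS2 and MAP3K8, which also rose, these letters were not in the windows read.

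Among regulators of SREBP and of sterol uptake, 14 were listed, 12 were tested and 2 were not analysed here. INSIG1, TMEM97 and STARD4 rose, 0 fell and 9 did not pass, with a median of 0.08 log2 units. INSIG1, the retention factor that is itself an SREBP target, lay at 10.75, 10.81 and 11.00 in solvent arrays 2, 9 and 13 and at 10.88, 11.12 and 11.06 with ASTX660. With SGI-110 it was at 10.42, 10.50 and 10.54, and with both agents at 10.70, 10.89 and 10.78. The arrays with ASTX660 were higher in each pair, by 0.06 to 0.39, and INSIG1 rose by 0.24 (0.16 to 0.31, adjusted p = 0.00376). TMEM97, a sterol-responsive membrane protein that binds NPC1, rose by 0.24 (adjusted p = 0.001), and the cholesterol carrier STARD4 by 0.23 (0.0113). STARD4 lost its call without SGI-110 array 2 (0.0685) or combination array 13 (0.0529). With the title number left out of the model 0 genes of this list passed. The lysosomal exporter NPC1 stood at 0.19 in the same direction in 6 of 6 differences without passing (adjusted p = 0.0764). The transcription factor genes SREBF2 (0.10, adjusted p = 0.389) and SREBF1 (0.04, 0.775) and the escort SCAP (0.04, 0.684) did not pass either.

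Of 14 fatty acid genes 12 were tested. FADS2, the delta-6 desaturase, and SCD, the delta-9 desaturase, rose. The other 10 did not pass, 0 fell, and the median was 0.14. All 12 values were positive, and 9 of 12 had an unadjusted p under 0.05, against 9.59% of all genes on the higher side. FADS2 lay at 7.66, 7.84 and 8.13 without ASTX660 and at 7.98, 8.13 and 8.42 with it. It rose by 0.30 (0.21 to 0.39, adjusted p = 0.00212), and its 6 differences were between 0.22 and 0.41. With the title number left out of the model FADS2 did not pass (limma adjusted p = 0.401), and the list kept 0 calls. The list also kept 0 calls with the number as a random block and without number 9. SCD had differences of 0.35, 0.22 and -0.06 without SGI-110 and 0.37, 0.36 and 0.34 after it, and rose by 0.26 (0.16 to 0.36, adjusted p = 0.0166). It lost the call without ASTX660 array 2 (adjusted p = 0.0745), and also without solvent array 2 or 9, any SGI-110 array or combination array 13 (0.0508 to 0.132). The acyltransferase GPAM (0.21, adjusted p = 0.155, but -0.03 from its probe set with the largest variance), the elongase ELOVL6 (0.17, 0.257), the acetyl-CoA synthetase ACSS2 (0.16, 0.193) and FASN (0.09, 0.426) did not pass.

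On the efflux side 8 of 11 listed LXR targets were tested and 0 passed, with a median of 0.05. ABCA1, the cholesterol exporter, had the smallest p of that list and stood below zero. It lay at 6.01, 6.15 and 7.31 in solvent arrays 2, 9 and 13, at 5.89, 5.97 and 6.76 with ASTX660, at 6.999, 7.06 and 7.93 with SGI-110 and at 6.53, 6.93 and 7.64 with both. Each array with ASTX660 was below its partner, while number 13 was the highest of every group. The pooled change was -0.29 (-0.42 to -0.16), which did not pass (adjusted p = 0.0723). A second probe set of ABCA1 brighter than the array medians stood at -0.39, and those dimmer than the medians at -0.03 and 0.04. The mean of all its probe sets stood at -0.17 (limma adjusted p = 0.234). With the title number left out of the model the adjusted p of ABCA1 was 0.703. SOAT1, which esterifies cholesterol, stood at 0.12 (adjusted p = 0.32), and at 0.06 without ASTX660 array 2.

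**Figure D3:**
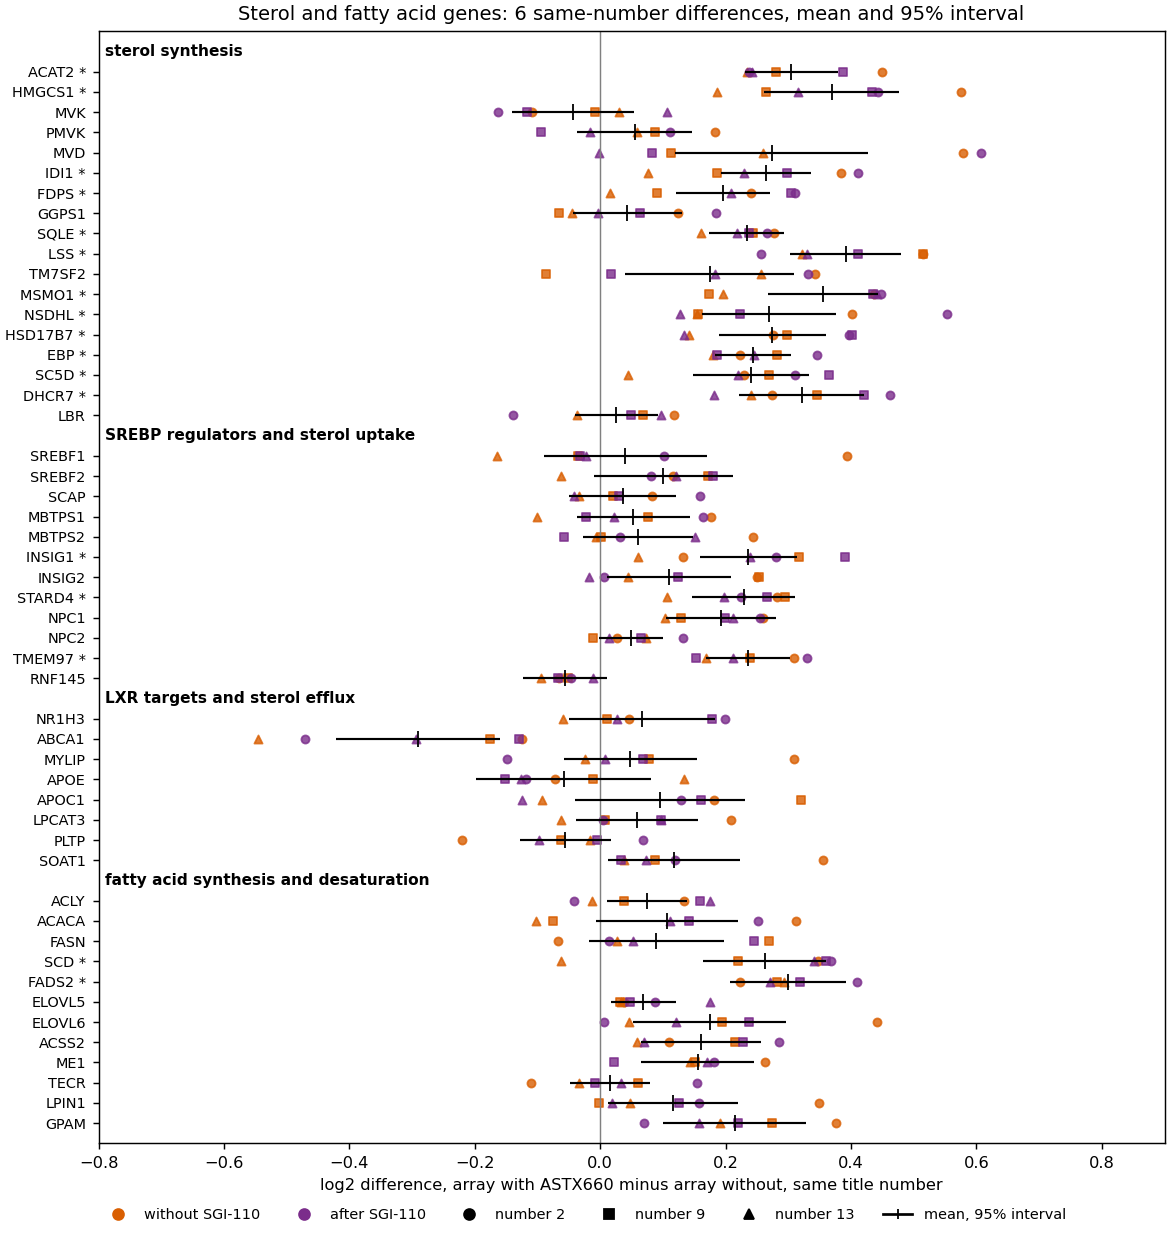
The 6 same-number log2 differences (x axis, array with ASTX660 minus array without) of every tested gene in 4 lipid lists, with the fitted mean and its 95% interval. Colour marks the SGI-110 state, the symbol marks the number, and an asterisk marks an adjusted p under 0.05. The 12 sterol synthesis genes with an asterisk have all their points right of 0, and SCD has 1 point left of it.

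Genes outside the lipid lists made up 6 of the 23. TUBA1A, an alpha-tubulin whose probe set can read close relatives, rose by 0.24 (0.18 to 0.30, adjusted p = 0.000299), from a median of 11.27 without ASTX660 to 11.54 with it. MMAB, the cobalamin adenosyltransferase that lies beside MVK, rose by 0.21 (adjusted p = 0.0132). Omitting solvent array 2, SGI-110 array 2 or 9, or combination array 13 ended this call (0.0529 to 0.0824). TMEM263 rose by 0.20 (0.00212), and its dimmer probe sets stood at -0.15 and -0.05. Averaged over all its probe sets the change vanished (0.000185, adjusted p = 0.999). TMEM263, MMAB, ERG28, SQLE and FDPS fell outside the rule for named genes and were chosen after their values were seen.

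MAP3K8, the kinase TPL2, passed with a change of 0.40 (adjusted p = 0.0166), but from levels that were not clearly above background. It lay at 3.78, 4.37 and 5.10 without ASTX660 and at 4.004, 4.89 and 5.44 with it. All 3 solvent arrays lay below the array medians, and the gene entered the test through 4 arrays with ASTX660 and 2 without that exceeded them. It reached the minimum of 3 arrays only with the help of the arrays with ASTX660, so its change is given as a description. Its other probe set stood at 0.08. The call was lost without ASTX660 array 2 (adjusted p = 0.068) and without solvent array 2 or 9, SGI-110 array 2 or 13, or combination array 9 or 13 (0.0518 to 0.0776).

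FPR1, a formyl peptide receptor of mature myeloid cells, was the gene that fell. It lay at 4.99, 5.25 and 5.42 without ASTX660 and at 4.79, 4.85 and 4.92 with it, with no overlap. The log2 value fell by 0.37 (95% interval -0.52 to -0.21, adjusted p = 0.0448). These levels lie just above the array medians, the other FPR1 probe set stood at 0.07, and the call depended on single arrays. It held without SGI-110 array 13 or ASTX660 array 13 and was lost without each of the other 10 (adjusted p 0.0524 to 0.202, and 0.118 without ASTX660 array 2). When every probe set was tested on its own, an alternative added after seeing the data, FPR1 and ERG28 did not pass (limma adjusted p = 0.0747 and 0.0522). Just past the threshold lay FGF1 (-0.30, adjusted p = 0.0513) and SLC39A14 (0.17, 0.0513). FGF1 had no overlap, at 5.47 to 5.71 without and 5.25 to 5.34 with ASTX660.

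Lower values with 6 of 6 negative differences that did not pass filled the rule for named genes. After FGF1 these were FAM135B (-0.27, adjusted p = 0.0723), ABCA1, NKX1-1 (-0.31, 0.0777), EFS (-0.28, 0.0849), LCN15 (-0.25, 0.103) and H1-4 (-0.36, 0.124). COX6B2 was also among them, but it exceeded the array medians in 3 arrays, all without ASTX660, so it entered the test only through the side where it was higher and no value is given. PAX8, C9orf163, SLC22A8, CHST3, GLYAT and TMEM92 followed, with values from -0.33 (C9orf163) to -0.20 (PAX8) and adjusted p from 0.133 to 0.168. At an unadjusted p under 0.05 there were 1769 genes (13.9%), 1217 higher (9.59%) and 552 lower (4.35%). That total was 1144 without ASTX660 array 2, and also 1144 with the title number left out of the model.

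No tested gene of the inhibitor of apoptosis family, which ASTX660 is aimed at, passed. XIAP stood at 0.07 (-0.06 to 0.19, adjusted p = 0.606) and BIRC2, which encodes cIAP1, at 0.02 (-0.07 to 0.10, adjusted p = 0.869). XIAP lay at 9.17, 9.26 and 9.37 without ASTX660 and at 9.07, 9.37 and 9.497 with it, so the groups overlapped. Of 36 genes to be named whatever their values, 27 were tested and 3 passed (LSS, HMGCS1 and INSIG1). All 9 tested inhibitor of apoptosis genes and antagonists failed the test (median 0.03), as did 19 NF-kB subunits and upstream factors (0.05), 20 NF-kB targets (0.03), 19 TNF family genes (0.02), 12 caspase and death complex genes (0.07) and 12 BCL2 family genes (0.04). MAP3K14, the NF-kB-inducing kinase, stood at 0.18 (0.02 to 0.33, adjusted p = 0.317), TRAF3 at 0.09 (0.375), NFKBIA at 0.01 (0.966) and TNFAIP3 at 0.07 (0.586). TNF stood at 0.09 (0.437), the TRAIL gene TNFSF10 at 0.19 (0.309), CD40 at -0.16 (0.216) and CXCL8 at -0.06 (0.658). CDKN1A, the cell-cycle inhibitor, stood at 0.11 (0.02 to 0.21, adjusted p = 0.303), BAX at 0.04 (0.571) and MCL1 at 0.04 (0.532). Among NF-kB subunits and upstream factors 3 more were too dim to test, and among NF-kB targets 10, NFKB2 and RELB of the non-canonical pathway being on both lists, with CXCL10, CCL20 and IL6 among the targets. For these genes the arrays give no answer. Without ASTX660 array 2, XIAP stood at 0.02, BIRC2 at -0.03, TNFSF10 at 0.12, MCL1 at 0.02, NFKBIA at 0.02 and CXCL8 at -0.08. MAP3K14 then stood at 0.12 and CDKN1A at 0.08. BIRC2, NFKBIA, TRAF3, MCL1 and CXCL8 changed sign under at least 1 setting, and no direction is given for them. Among the genes tested, the 95% interval lay within 1.5-fold for 99.97% of tested genes and within 1.2-fold for 85.59%. These values concern RNA and say nothing of the proteins that ASTX660 binds.

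**Figure D4:**
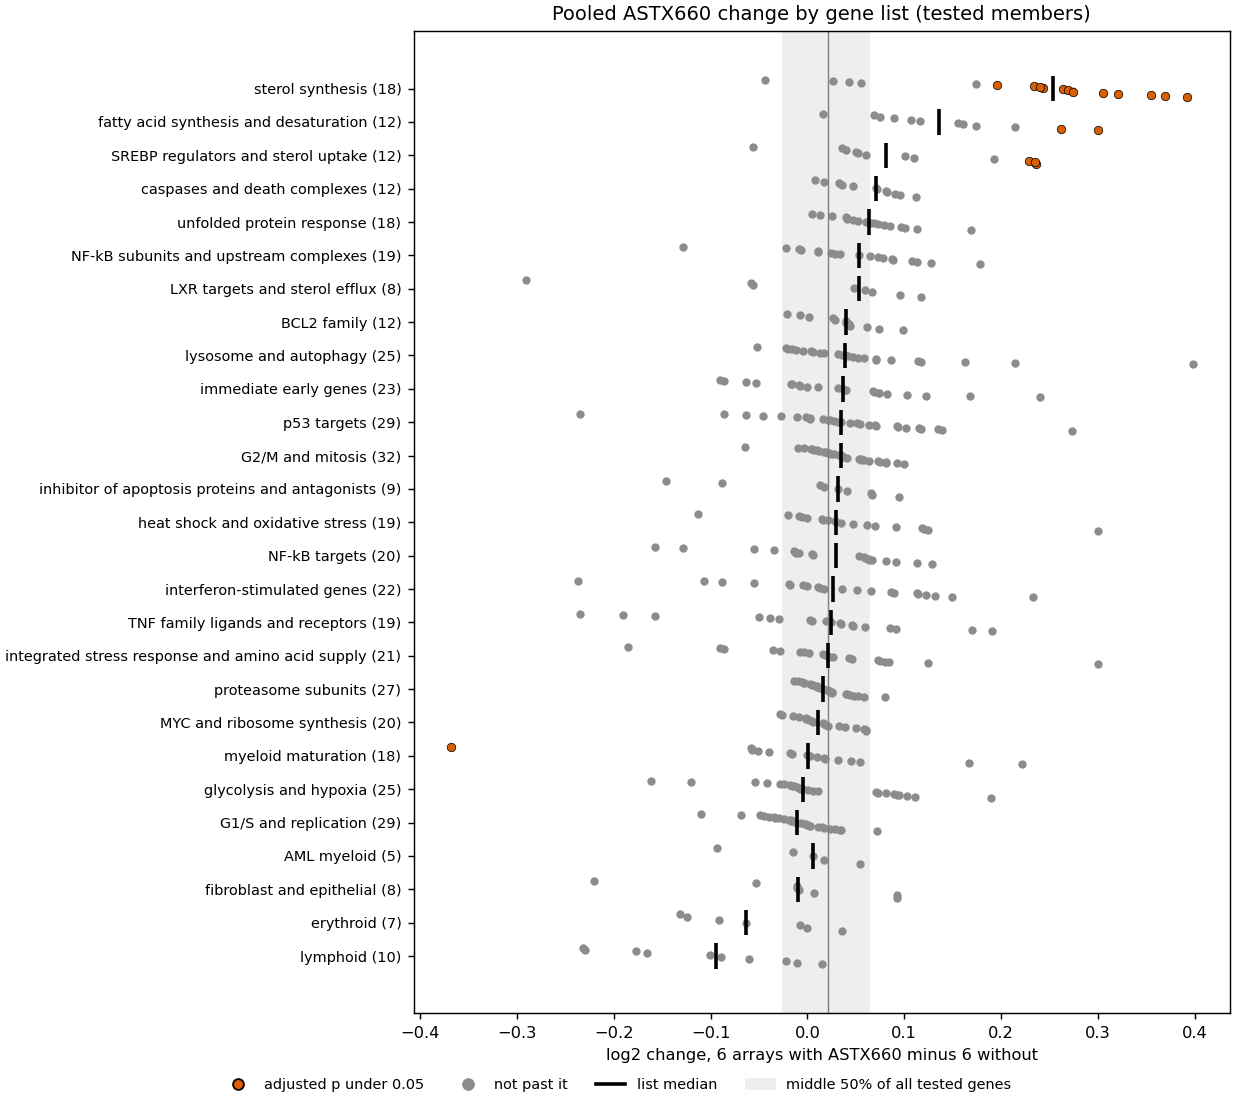
Pooled log2 change (x axis) of each tested member of 23 gene lists and 4 marker lists, with the number tested in brackets. Orange points passed, black bars are list medians, and the grey band from -0.02 to 0.06 holds the middle 50% of all tested genes. Orange points lie in the 3 upper lists and in the myeloid maturation list, where the point is FPR1.

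In the stress, housekeeping and maturation lists 0 genes passed apart from FPR1. Among lysosome and autophagy genes (25 tested, median 0.04) the sialidase NEU1 stood at 0.21 (adjusted p = 0.0573), the autophagy receptor SQSTM1 at 0.16 (0.0667) and WIPI1 at 0.40 (0.0985). The cystine transporter SLC7A11 stood at 0.30 (0.16 to 0.44, adjusted p = 0.0723) in a list of 21 stress response genes with a median of 0.02. Its other probe sets stood at 0.27 and -0.13, and the mean of all its probe sets at 0.15 (limma adjusted p = 0.308). In the unfolded protein response all 18 tested genes were above zero (median 0.06, 63.6% of all genes were positive). So were all 12 tested caspase and death complex genes (median 0.07) and 29 of 32 G2/M genes (0.03). Of the 18, 6 had an unadjusted limma p under 0.05 on the higher side (9.59% of all genes), led by the sensor ERN1 (0.17, adjusted p = 0.124). ERN1 stood at 0.00644 when all its probe sets were averaged. NQO1, an NRF2 target, stood at 0.12 (0.132) and the early gene KLF6 at 0.24 (0.128). Averaged over all its probe sets KLF6 stood at 0.098. The p53 targets (29 tested, median 0.04), interferon-stimulated genes (22, 0.03), immediate early genes (23, 0.04) and heat shock and oxidative stress genes (19, 0.03) had 0 passing members. The G1/S (29, -0.01), G2/M (32, 0.03), MYC and ribosome (20, 0.01), proteasome (27, 0.02) and glycolysis lists (25, -0.00) had none either.

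Markers of other lineages were followed because they could shift with the cells. Of 10 tested lymphoid markers 9 were negative, with a median of -0.09, 4 with an unadjusted p under 0.05 and 0 passing. Of all genes 63.6% were positive and 4.35% were lower at that threshold. The median level of these 10 markers was 4.96, close to the array medians. Their summed level was 53.94 to 55.87 log2 units without ASTX660 and 52.33 to 54.78 with it. Another 5, among them CD3G, CD2 and MS4A1, were too dim to test. Of 7 tested erythroid markers 6 were negative (median -0.06, summed level 46.96 to 48.44 without and 47.34 to 47.72 with), and 8 fibroblast and epithelial markers had a median of -0.01. The part of these markers in the other results was not tested.

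The pooled value rests on 2 contrasts that share no array, ASTX660 against solvent and the combination against SGI-110, although arrays of the same number come from the same experiment as read here. With 3 arrays on each side, the contrast without SGI-110 called 1 gene, LSS (0.45, adjusted p = 0.00765), and 1464 had an unadjusted p under 0.05 (11.5%). That contrast holds ASTX660 array 2, and the count of 1464 is given only with it. The contrast after SGI-110 called 10 (0.0788%, with 590 or 4.65% unadjusted): ACAT2, EBP, FDPS, IDI1, INSIG1, LSS, MSMO1, SCD, SQLE and TUBA1A. Read in the arrays without SGI-110, these 10 were all positive, between 0.12 and 0.45 with a median of 0.22, and all 10 had an unadjusted p under 0.05. In those arrays 63.6% of all genes were positive, and 58.7% were positive after SGI-110. Both contrasts came from the same fit and share the error estimate of each gene. Genes picked for a small p in 1 contrast thus bring a small standard error to the other. The count of 10 under 0.05 is therefore a description and no independent support.

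The difference of the 2 contrasts was tested directly, and limma called 0 of 12689 genes (394 at an unadjusted p under 0.05, 3.11%, smallest adjusted p 0.995). The change was larger after SGI-110 in 43.6% of all genes. Of the 23 genes, MSMO1 (unadjusted p = 0.0379), SCD (0.0424) and FDPS (0.022) had an unadjusted p under 0.05 for that difference. Each was larger after SGI-110, at 0.44 against 0.27, 0.36 against 0.17 and 0.27 against 0.12, and none passed the adjustment. The standard error of the difference had a median of 0.104 log2 units. The pooled changes of the higher genes were 0.20 to 0.39 apart from MAP3K8 (0.40), which lay near background. In the SGI-110 arrays relative to solvent the sterol synthesis list had a median of -0.15 and the fatty acid list of -0.17, differences that were not tested here. In HMGCS1 the 4 group means were 9.98 (solvent), 9.45 (SGI-110), 10.32 (ASTX660) and 9.85 (combination).

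**Figure D5:**
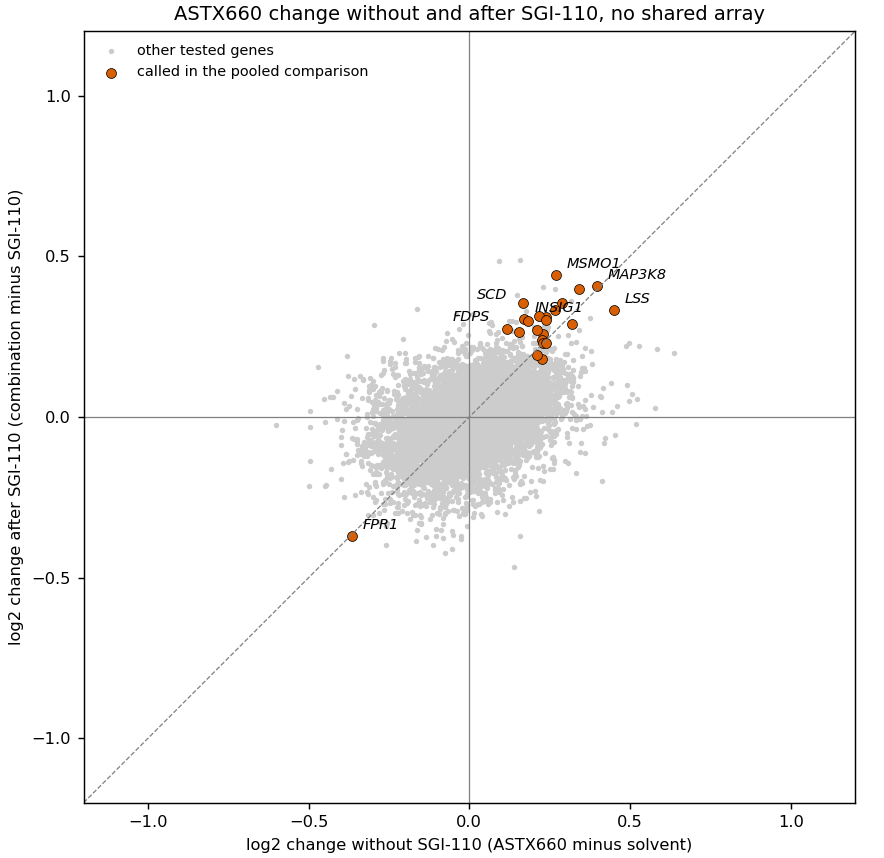
Log2 change with ASTX660 in arrays without SGI-110 (x axis) against the change after SGI-110 (y axis) for each tested gene, with the line of equal change dashed. The 23 orange genes passed in the pooled comparison, which the 2 axes make up, so their place off the centre is given by that choice. LSS lies at 0.45 and 0.33, MSMO1 at 0.27 and 0.44, and FPR1 at -0.37 and -0.37.

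Other probe sets of the 23 genes gave a second reading of the same RNA. There were 32 of them for 17 genes, and 27 had the same direction. Of the 26 brighter than every array median 24 had the same direction, with a median of 0.19, and of the 6 dimmer ones 3 did, with a median of 0.02. For comparison, 63.6% of all tested genes were positive. Tested on their own, 9 of the 32 passed (limma adjusted p under 0.05), 9 of the brighter 26 and 0 of the dimmer 6. SQLE had others at 0.14, 0.29 and 0.35. A second LSS probe set stood at 0.22, and the other, dimmer than the medians, at 0.02. When all probe sets of a gene were averaged, LSS stood at 0.21, FADS2 at 0.18, IDI1 at 0.17, EBP at 0.15, SC5D at 0.13 and ERG28 at 0.10. All of these lost their calls then (limma adjusted p 0.0773 for LSS to 0.239 for SC5D). Of the 23 genes, 21 were tested on that average, and only 11 of them still passed. Leaving out each array in turn kept 14 of the 23 under every omission: LSS, HMGCS1, MSMO1, DHCR7, ACAT2, FADS2, HSD17B7, IDI1, EBP, TUBA1A, INSIG1, TMEM97, SQLE and TMEM263. Combination array 2 moved the count most, to 54 without it, 22 of the 23 included, and 15 or 14 genes passed without solvent array 2 or SGI-110 array 2.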

How the data were processed

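Total RNA of ML-2 cells was measured on 12 Affymetrix arrays, from 100 ng per sample with a 3' IVT PLUS kit per the labels' protocols. The deposited values are log2 intensities, made by the authors with RMA in the affy package per the submitters' processing notes, with no version given. They were used without further scaling. The sources used here do not say whether all arrays shared the same RMA run. RMA compresses ratios of dim probe sets, so a fold is a ratio of array signals.

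The file held 54675 probe sets with values from 2.08 to 14.4. Of these 42898 were in the platform annotation, 11777 were not, 41097 had 1 gene symbol and 1801 several. After control probe sets were removed 41091 were used, and 41037 matched the RefSeq gene table. Each of 19775 genes was read from its probe set with the highest mean over the 12 arrays. Genes whose probe set was above the median of its array in 3 or more arrays were tested, 12689 in all, of which 8164 had several probe sets.

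limma 3.58.1 in R 4.3.3 was fitted on all tested genes with terms for ASTX660, SGI-110 and title number (7 residual degrees of freedom, 11.59 prior), an intensity trend and Benjamini-Hochberg adjustment. Calls were made at an adjusted p under 0.05. The 2 contrasts within SGI-110 state and their difference came from a fit with 4 group means and the number (6 residual degrees of freedom). The code was tested on simulated data. The number was a term of the comparison from the start. Whether arrays with the same number deviated together was checked by correlating deviations from group means. Over the 6 same-number pairs of the same SGI-110 state, with and without ASTX660, these correlated at 0.208 to 0.551. Over all 18 same-number pairs they correlated at 0.057 to 0.572. Over 36 pairs of other numbers and different groups the range was -0.435 to 0.208. The number of arrays limits the precision. Because the title number was a term, p-values measure the spread of arrays left after the level of each experiment was removed. Differences without and after SGI-110 from the same experiment counted as separate in that spread.

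Members, comparisons and gene lists were chosen with earlier results of these data known, so no list is independent evidence. Named genes were up to 15 highest and 15 lowest changes among called genes with 6 differences of the same sign (filled up by smallest p), up to 3 genes per list by smallest p, and 36 fixed genes, of which the text leaves some out for length. Promoter windows come from RefSeq (GRCh38.p14). Alternatives covered the block, scaling, the filter, the choice of probe set, the variance model and left-out arrays. A test of every probe set on its own was added after seeing the data.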

Additional observations from a re-analysis of the deposited data

Results flagged for a closer look

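In 6 of 109 genes or gene values screened (5.5%), 1 of the 6 same-number differences lay far from the other 5 by Dixon's criterion, and chance flags about 1 in 20 such groups. Without SGI-110, number 2 gave the high difference for BAD (0.286, the nearest being 0.105), ERN1 (0.265 against 0.164) and SOAT1 (0.355 against 0.12). SCD had a low difference for number 13 without SGI-110 (-0.0624 against 0.22), and CENPA for number 9 (0.0012 against 0.0803). XIAP had a low difference for number 2 after SGI-110 (-0.299 against 0.0815).

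DIABLO, which encodes an antagonist of inhibitor of apoptosis proteins, stood above zero in all 3 pairs without SGI-110 (mean 0.07) and below zero in all 3 after it (mean -0.04). The gap of -0.109 did not pass the limma test of the difference (unadjusted p = 0.0641, adjusted p = 1).

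Some probe sets outside the gene comparison passed as well. Tested together with all others, 4 of 1801 with several symbols (0.222%) and 9 of 11721 with none listed (0.0768%) passed, each of them higher. Of those with 1 symbol 33 of 41091 passed (0.0803%), so the share with none listed was close to it. Whether these probe sets read the same genes was not tested. No control probe set passed (0 of 62).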

How the results depend on the processing

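The 23 called genes kept their sign in the alternative settings that tested them (up to 27), though TMEM263 fell to 0.000185 with the mean of all probe sets. Of 109 named genes 18 changed sign in at least 1 setting, 51 times in all. None of these 18 was called with the settings of the report.

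Signs changed as follows. With quantile normalization BIRC2 stood at -0.00663, DIABLO at -0.00295, TNFRSF10B at -0.0216, FAS at -0.0152, TNFRSF1A at -0.0183 and NFKBIA at -0.0322. With array weights DIABLO stood at -0.00903, TNFRSF10B at -0.0334, FAS at -0.0139, TNFRSF1A at -0.0291, NFKBIA at -0.00493 and BCL2 at -0.0397. With the mean of all probe sets TAB3 stood at -0.0251, MCL1 at -0.00618, CASP8 at -0.0198, TNFRSF10B at -0.0135 and BCL2 at -0.0321. With the probe set of largest variance GPAM stood at -0.0292, TRAF3 at -0.0268, TNFRSF10C at 0.0177, MCL1 at -0.0333, JUND at -0.0381, PSMD1 at -0.0201, POLR1B at -0.00266 and BCL2 at -0.0901. Left-out arrays or numbers changed the sign of MCL1, PSMA1, BIRC2, DIABLO, TNFRSF10B, FAS, TNFRSF1A, NFKBIA, CXCL8 and BCL2, with values given as ranges: MCL1 -0.00726 to 0.0687, PSMA1 -0.018 to 0.0935, BIRC2 -0.027 to 0.0548, DIABLO -0.0129 to 0.0344, TNFRSF10B -0.0294 to 0.0384, FAS -0.00965 to 0.0758, TNFRSF1A -0.0231 to 0.0289, NFKBIA -0.0481 to 0.0532, CXCL8 -0.113 to 0.0202 and BCL2 -0.0129 to 0.0812.

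The counts moved as well. With no replicate block, that is without pairing by title number, 7 genes passed (7 higher, 0 lower, 5 of the sterol list) and 0 in either contrast. With the number as a random block these were 15 (13 and 2), 0 without SGI-110 and 0 after it. Without the intensity trend they were 10 (8 and 2, 6 of the sterol list), 0 and 0. Array weights gave 93 (71 and 22), 26 and 22. The mean of all probe sets of a gene gave 14 higher and 2 lower (16 in all, 7 of the sterol list), 0 without SGI-110 and 1 after it. The probe set with the largest variance gave 0 lower and 5 after SGI-110, and 4 group means gave 0 lower. Quantile normalization gave 2 lower and 2 without SGI-110, no filter gave 2 without SGI-110, and robust eBayes 2. The causes were not tested. Leaving out an array or a number moved the pooled count between 9 (without number 9) and 54 (without combination array 2), the higher genes between 9 and 50 and the lower between 0 and 4. It moved the contrast without SGI-110 between 0 and 20, that after SGI-110 between 0 and 16, and the sterol list between 7 and 12. The difference of the contrasts stayed at 0 calls under every setting. Median centring raised the median of all genes by 0.03 and gave 30 calls. Precision is limited by 12 arrays, and genes near the array medians have little signal over background.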
